A study of Drosophila melanogaster with 8 samples.

Results

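Piwi was depleted in follicle cells of 2 kinds of flies, and the RNA levels of their transposable element (TE) families are compared here. The comparison takes 4 of the 8 samples of the series, all from Drosophila melanogaster ovaries, with 2 biological replicates of 30 pairs of ovaries in each group. The piwi-sKD flies came from a stable line in a w background that carried the driver tj-GAL4, the transgene tubP-GAL80[ts] and the hairpin sh-piwi. The piwi-sKD,ctrl-sKD flies came from a cross and carried tj-GAL4 over +, and GAL80[ts] with sh-piwi over sh-w, a hairpin against white that served as control for a second knockdown. Levels in the 2 other groups are given beside the results: no-KD, which is the piwi-sKD line kept at 20°C, and piwi-sKD,dcr2-sKD, the other cross, in which sh-dcr2 takes the place of sh-w. The series holds no samples of either cross without Piwi depletion. Dcr2 is the Dicer that makes small interfering RNAs in flies. Both groups compared were labelled as shifted to 25°C, for 5 days in each case. The names of the piwi-sKD libraries carry the number 25 and those of the piwi-sKD,ctrl-sKD libraries the number 28, and the label was followed. The fly line, the copies of the transgenes, the second hairpin, the table of normalised counts and the number in the library names all change together between the groups and cannot be told apart.

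Piwi is a nuclear Argonaute protein that is guided by Piwi-interacting RNAs (piRNAs) to nascent TE transcripts, where it silences transcription. Follicle cells, the somatic cells around the female germline, depend on Piwi and on piRNAs from the flamenco locus to repress the long-terminal-repeat retrotransposons, called endogenous retroviruses (ERVs) here. Several ERVs of flies carry an env-like gene, and some can pass from follicle cells into the germline. Fly strains are known to differ in the copies they carry of many TE families, and a family can be silent in one strain and active in another. The tj-GAL4 driver acts in somatic gonad cells, GAL80[ts] keeps it off in the cold, and the knockdown was not driven in the germline. Whole ovaries were sequenced, so that fewer follicle cells and less RNA per cell cannot be told apart.

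Levels are normalised counts of reads per TE family in polyA-enriched RNA. They were not corrected for element length or copy number. The 2 groups stand in separate tables, each with its own size factors. Values of the second table were therefore multiplied by 1.19, so that the median log2 ratio was 0 over the 105 families whose mean reached 10 normalised counts in either group. All levels below are on this common scale, and a difference shared by all families cannot be seen on it. Taking the common step of a sample's values as 1 read, the TE reads behind the values numbered 192221 and 261136 for piwi-sKD and 179578 and 190942 for piwi-sKD,ctrl-sKD, and the 3 reads taken as the floor were worth 2.66 to 3.10 and 2.82 to 3.22 deposited normalised counts. Gene rows were not used here, so that neither the piwi knockdown nor markers of the tissue were checked.

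The 2 Piwi-depleted lines had different sets of abundant TE transcripts. Replicates of a line differed by a median of 0.13 (piwi-sKD) and 0.18 (piwi-sKD,ctrl-sKD) on the log2 scale over the 105 families, and 0 families differed by more than 2-fold between replicates of either line. The means of the lines differed by a median of 0.50, and by 0.49 without the ERV Tirant. Across families, the Pearson correlation of log2 levels was 0.996 between replicates of each line and 0.874 between the lines, or 0.939 without Tirant. Families are the points of these correlations and not replicates. In both lines the replicates were further apart than counting error allows, with a chi-square of 21.7 times (piwi-sKD) and 12.1 times (piwi-sKD,ctrl-sKD) its degrees of freedom.

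**Figure D1:**
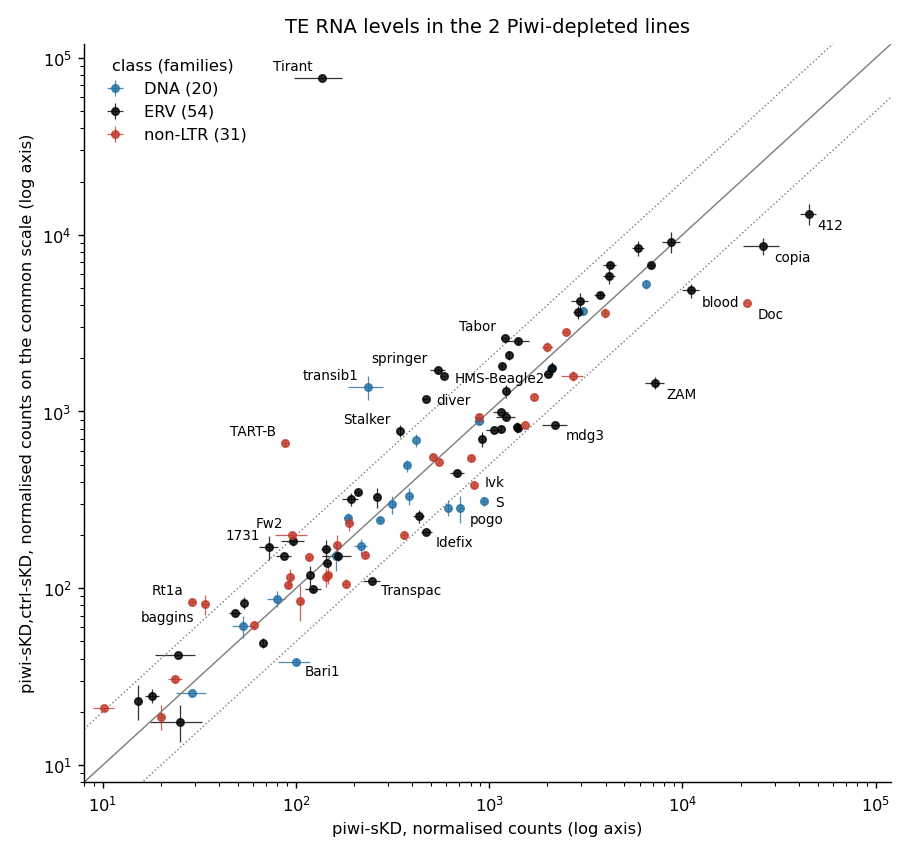
Mean level of each of the 105 TE families in piwi-sKD (x axis) and piwi-sKD,ctrl-sKD (y axis), both in normalised counts on log axes, coloured by class, with bars from the lower to the higher of 2 replicates, the line of equal levels and dotted lines at 2-fold. Tirant stands apart at 135 and 76791 normalised counts, and 412, copia, Doc and ZAM lie on the opposite side of the line.

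Among the 105 families, 13 exceeded 2-fold upwards in piwi-sKD,ctrl-sKD (12.4%) and 13 downwards (12.4%), and in each of these 26 families the samples of the 2 lines did not overlap. Non-overlap alone was common, with 86 of the 105 families (81.9%), of which 44 were higher (41.9%) and 42 lower (40%) in piwi-sKD,ctrl-sKD. In limma, at an adjusted p under 0.05, 31 of 110 families were higher (28.2%) and 29 were lower (26.4%). These counts rest in part on the first piwi-sKD,ctrl-sKD replicate, without which limma called 15 higher and 12 lower with 13 and 12 past 2-fold. Of the 26 families past 2-fold, 17 were called by limma under every alternative and 9 were not. With the values as deposited, limma called 22 higher and 44 lower, and with the TE sum outside Tirant made equal in all samples it called 69 and 14, since these scalings shift the median of all families by -0.25 and 0.56 on the log2 scale. The sign of each of the 26 differences past 2-fold was the same under all 18 alternatives tried for a single family, other than for Fw3, which was left out by 1 filter and kept its sign under the 17 others.

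Tirant, an ERV known for copies that differ between natural strains, was the family that differed most. It stood at 174 and 97.4 normalised counts in the 2 piwi-sKD samples and at 75844 and 77738 in the piwi-sKD,ctrl-sKD samples. The piwi-sKD level was near that of the same line without knockdown (no-KD, raised at 20°C), at 98.1 and 123. In the other cross, Tirant was at 68374 and 75955. Neither cross was measured without Piwi depletion, so whether the knockdown has a part in these levels was not tested. The ratio of the means was 567, and the log2 fold change was 9.19 ± 0.15 (SE, limma). The limma fit shared 1 spread among families of similar level. In a fit without that trend, the adjusted p of limma was 2.02e-16.

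Tirant alone held 32.9% (95% Wilson interval 32.7 to 33.2) and 36.4% (36.1 to 36.6) of all TE reads in the piwi-sKD,ctrl-sKD replicates. In piwi-sKD its 168 and 110 reads made up 0.0874% (0.0751 to 0.102) and 0.0421% (0.0350 to 0.0508). These intervals cover counting error only. Summed over all families, the signal reached 214847 ± 22997 normalised counts for piwi-sKD and 222033 ± 11605 for piwi-sKD,ctrl-sKD (SD, n = 2 each), a ratio of 1.03 that the common scale sets in part. Without Tirant the sums were 214711 ± 23051 and 145242 ± 12944, a ratio of 0.676. The most abundant families in piwi-sKD, 412, copia and Doc, weigh heavily in these sums. Their means were 45035, 26177 and 21501 in piwi-sKD and 13118, 8638 and 4119 in piwi-sKD,ctrl-sKD. By count, 13 families were past 2-fold in each direction. With 2 samples a group the smallest p of an exact permutation test is 0.333, and none is given for these sums.

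**Figure D2:**
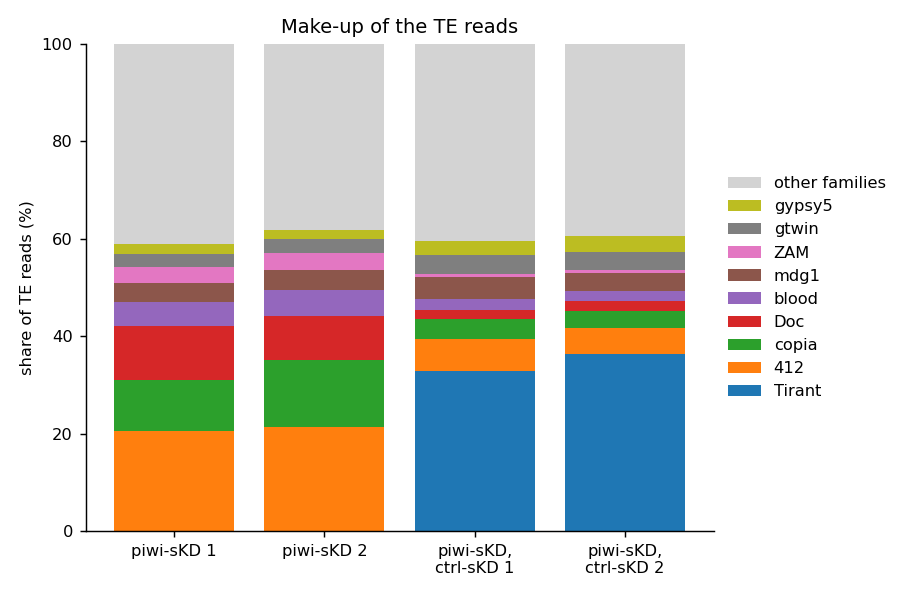
Share of TE reads (y axis, %) held by 9 families and by all others in each of the 4 samples (x axis). Tirant fills 32.9% and 36.4% of the bars of piwi-sKD,ctrl-sKD and is too small to see in those of piwi-sKD, where 412 holds 20.5% and 21.3%.

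Without Tirant, the order of the most abundant families still differed. By count, the ERV 412 led in piwi-sKD, followed by the ERV copia and the non-LTR element Doc. In piwi-sKD,ctrl-sKD, Tirant was followed by the ERVs 412, mdg1, copia and gtwin. 412 held 20.6% and 21.3% of the TE reads outside Tirant in piwi-sKD, against 9.62% and 8.37% in piwi-sKD,ctrl-sKD. Doc held 11.1% and 9.12% of these reads against 2.65% and 3.04%, and ZAM 3.24% and 3.49% against 0.869% and 1.15%. These shares do not depend on the factor between the tables.

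ERVs differed in both directions. Of 54 ERVs, 21 were called higher and 16 lower in piwi-sKD,ctrl-sKD, and 17 were not called, beside 28.2% higher and 26.4% lower over all families. Of 35 non-LTR families 6 were higher and 9 lower, and of 21 DNA families 4 were higher and 4 lower. Without the first piwi-sKD,ctrl-sKD replicate the counts higher and lower were 9 and 4 for ERVs, 4 and 5 for non-LTR families and 2 and 3 for DNA families. The balance turned with the scaling, to 15 and 20, 5 and 14, and 2 and 10 as deposited, and to 35 and 7, 20 and 3, and 14 and 4 with the TE sum outside Tirant made equal. The median log2 ratio was 0.15 for ERVs, 0.03 for non-LTR families and -0.12 for DNA families, beside 0 for all families, and the first 2 turn to -0.10 and -0.23 on the values as deposited. Log2 ratios ran from -2.32 to 1.65 for ERVs without Tirant, from -2.38 to 2.92 for non-LTR and from -1.60 to 2.55 for DNA families. Summed signal was 0.684 times as high in piwi-sKD,ctrl-sKD for ERVs without Tirant, 0.533 times for non-LTR families and 0.948 times for DNA families. Single abundant families weigh heavily in the first 2 of these ratios. Doc, with a mean of 21501 against 4119 normalised counts, does so for the non-LTR families. For the ERVs these are 412 (45035 against 13118) and copia (26177 against 8638). The class sums therefore do not describe the typical family of a class, for which the medians are given above.

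The abundant ERVs ZAM, 412, copia and blood were lower in piwi-sKD,ctrl-sKD. ZAM, an ERV whose RNA is made in follicle cells when flamenco does not silence it, was at 6427 and 8054 normalised counts in piwi-sKD and at 1341 and 1561 in piwi-sKD,ctrl-sKD. It was 4.99-fold lower (log2 fold change -2.31 ± 0.15, SE), and both groups lay above the no-KD samples at 187 and 162. 412 was at 40777 and 49292 in piwi-sKD and at 14849 and 11387 in piwi-sKD,ctrl-sKD, 3.43-fold lower (-1.79 ± 0.30). Copia, the element that gives its name to an ERV superfamily, was at 20601 and 31753 against 9634 and 7642, 3.03-fold lower (-1.58 ± 0.25). Its piwi-sKD replicates lay far apart, but both were above both samples of the other line. Blood was at 9949.9 and 12242 against 5295 and 4397, 2.29-fold lower (-1.19 ± 0.19). The calls of 412, copia and blood were lost without the first piwi-sKD,ctrl-sKD replicate, with log2 fold changes of -1.90, -1.66 and -1.25.

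The levels of these 4 ERVs in the other cross differed from family to family. In piwi-sKD,dcr2-sKD, 412 reached 76571 and 64711 normalised counts, blood 14374 and 12612 and copia 20945 and 20018, all above the control cross. ZAM was at 1096 and 1015, below both control samples. No test was made here between these groups. In no-KD, 412 was at 6516 and 5875, copia at 1831 and 1796 and blood at 1507 and 1261, below both Piwi-depleted lines on the common scale.

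**Figure D3:**
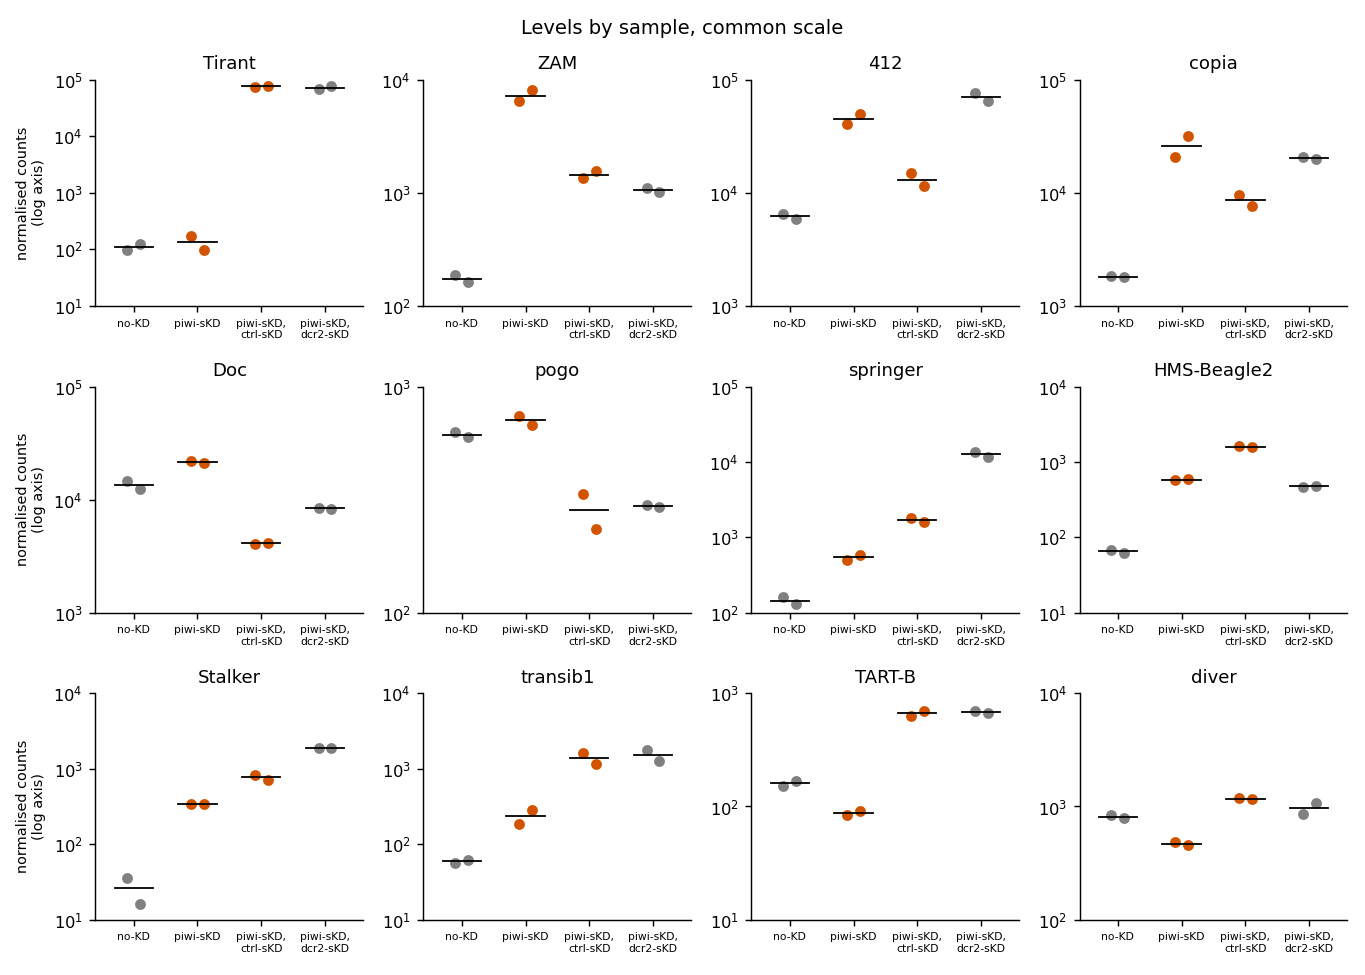
Levels of 12 families in normalised counts on the common scale (y axes, log, with ranges that differ between panels) in the 4 groups of the series (x axis). Points are samples and bars are means, with the 2 lines compared in orange; for Tirant, transib1 and TART-B the 2 crosses lie together above both groups of the piwi-sKD line.

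Other ERVs were lower at smaller levels. Mdg3 was at 1866 and 2521 normalised counts in piwi-sKD and 851 and 815 in piwi-sKD,ctrl-sKD, with no-KD between them at 966 and 882. Idefix, an ERV that has moved together with ZAM in unstable fly lines, was at 443 and 503 against 212 and 203, and no-KD was at 486 and 341. Idefix was therefore near the no-KD level in piwi-sKD and 2.28-fold lower in the cross. Transpac was at 223 and 272 against 108 and 112, 2.25-fold lower. The calls of mdg3 and Transpac were lost without the first piwi-sKD,ctrl-sKD replicate (-1.33 and -1.05).

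Springer, of the gypsy lineage, was the ERV after Tirant with the largest difference upwards. It was at 494 and 592 normalised counts in piwi-sKD and at 1796 and 1622 in piwi-sKD,ctrl-sKD, 3.15-fold higher (log2 fold change 1.66 ± 0.13, SE). Its no-KD samples were at 159.6 and 129, and the piwi-sKD,dcr2-sKD samples at 13447 and 11664. HMS-Beagle2, of the lineage of ZAM, differed in the opposite direction to ZAM, at 572 and 593 against 1606 and 1558 (2.72-fold higher, 1.44 ± 0.13). Its level in piwi-sKD,dcr2-sKD, 470.0 and 486, was below both lines compared, and its no-KD samples were at 69.0 and 62.6.

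Stalker and Tabor, both related to 412, differed in the opposite direction to it as well. Stalker was at 344 and 343 normalised counts in piwi-sKD and at 835 and 713 in piwi-sKD,ctrl-sKD (2.25-fold higher, log2 fold change 1.16 ± 0.14). Its no-KD samples were at 35.6 and 16.1. Tabor was at 1151 and 1261 against 2637 and 2585 (2.16-fold higher, 1.12 ± 0.14), and at 877 and 779 in no-KD. The copia relative 1731 was at 64.1 and 80.5 against 197 and 144, also opposite to copia, and its call was lost without the first piwi-sKD,ctrl-sKD replicate (1.08).

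Diver, an ERV of the BEL/Pao superfamily, had its lowest levels in the piwi-sKD line under knockdown. It was at 483 and 456 normalised counts in piwi-sKD, at 839 and 786 in no-KD and at 1187 and 1158 in piwi-sKD,ctrl-sKD, 2.50-fold above piwi-sKD (log2 fold change 1.32 ± 0.13). The other cross was at 859 and 1075.

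Non-LTR retrotransposons, which copy their RNA into DNA at the site of insertion, held the second largest difference. TART-B, which with HeT-A and TAHRE maintains fly telomeres, was at 83.7 and 92.0 normalised counts in piwi-sKD and at 626 and 702 in piwi-sKD,ctrl-sKD. It was 7.56-fold higher (log2 fold change 2.90 ± 0.16, limma adjusted p = 4.61e-43, and 3.10e-10 in a limma fit without the variance trend). The no-KD samples of the piwi-sKD line were low too, at 151 and 169.5, and the other cross was at 700.0 and 672. The other telomeric families differed less. HeT-A was lower, at 1707 and 1697 against 1242 and 1162 (-0.50 ± 0.13, limma adjusted p = 0.000611, and 0.0184 in limma without the variance trend). Its direction turned to 0.061 when the TE sum outside Tirant was made equal. The HeT-A call was lost without the first piwi-sKD,ctrl-sKD replicate (-0.47). TART-A was at 2562 and 2421 against 2885 and 2755 (limma adjusted p = 0.293; -0.076 as deposited), and TAHRE at 21.7 and 25.7 against 32.1 and 29.1 (limma adjusted p = 0.307). Neither passed the test. TART-A and TART-B are related, and reads that match both may be split by the counting in a way that is not stated.

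Doc, of the jockey clade, showed the largest difference downwards of all families. It was at 21939 and 21062 normalised counts in piwi-sKD and at 4095 and 4143 in piwi-sKD,ctrl-sKD, 5.22-fold lower (log2 fold change -2.38 ± 0.21). The no-KD samples, at 14475 and 12494, were also far above the control cross, while piwi-sKD,dcr2-sKD was at 8495 and 8259. Of the 18 families listed here under the jockey clade, 5 were lower and 1 was higher in limma, beside 26.4% lower and 28.2% higher over all families. The split was 9 lower and 1 higher as deposited, 2 lower and 8 higher with the TE sum outside Tirant made equal, and 3 lower and 0 higher without the first piwi-sKD,ctrl-sKD replicate. The lower ones were Doc, jockey, G6, Doc3 and G4, with log2 ratios of -0.56 to -0.86 for the 4 after Doc. The higher one in the list was G7, whose mean stayed under 10 normalised counts in both lines. The list left out the telomeric families and the non-LTR families Fw2, Fw3 and G5A. Among those left out, TART-B, Fw2 and Fw3 were called higher, HeT-A was called lower, and TART-A, TAHRE and G5A were not called.

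Among the R1, I and LOA clades, 2 of 8 families were higher and 2 lower, beside 28.2% and 26.4% of all families, and 6 and 1 with the TE sum outside Tirant made equal. Rt1a, a relative of elements that insert into ribosomal RNA genes, was at 27.9 and 30.1 against 85.9 and 81.7 normalised counts (2.89-fold higher), and baggins at 32.0 and 35.4 against 70.5 and 91.8 (2.41-fold higher). Ivk was at 843 and 819 against 395 and 372 (2.17-fold lower), and R1A1 at 354 and 369 against 210.3 and 189 (1.81-fold lower). The I element, whose activity causes a hybrid dysgenesis in crosses between strains, was at 838 and 924 against 900.0 and 968, which overlapped (limma adjusted p = 0.606; -0.17 as deposited). Outside these clades, Fw2 was at 114 and 77.9 against 208 and 190.4, 2.08-fold higher, a call that was lost without the first piwi-sKD,ctrl-sKD replicate (1.09). Its relative Fw3 was just past 2-fold, at 11.4 and 8.85 against 20.5 and 21.3.

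DNA elements move by excision and insertion, and 8 of 21 passed the test, beside 54.5% of all families. As deposited 12 passed, and 18 with the TE sum outside Tirant made equal. Transib1, of a superfamily whose transposase is related to the RAG1 recombinase of vertebrates, was at 186 and 283 normalised counts in piwi-sKD and at 1594 and 1162 in piwi-sKD,ctrl-sKD. It was 5.87-fold higher (log2 fold change 2.56 ± 0.14), and no-KD was at 56.1 and 62.6. The 4 Transib families differed in direction. Transib2 was higher, at 388 and 362 against 535 and 456 (log2 fold change 0.40 ± 0.14, limma adjusted p = 0.0135). Its call was lost on the values as deposited, in limma without the variance trend and with the replicate number as a block. Transib3 was lower, at 624 and 605 against 255 and 315, and transib4 overlapped, at 157 and 165 against 126 and 180.

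Of the 9 Tc1/mariner families, 3 were lower and 0 higher in limma, beside 26.4% and 28.2% of all families, and 6 were lower as deposited. At an unadjusted p under 0.05 the count higher was 0 too, and it was 1 in limma without the variance trend and 6 with the TE sum outside Tirant made equal. S was at 975 and 911 normalised counts against 327 and 293 (3.04-fold lower), pogo at 738 and 679 against 335 and 234 (2.49-fold lower), and Bari1 at 80.6 and 119 against 39.7 and 37.0 (2.60-fold lower). The call of Bari1 was lost without the first piwi-sKD,ctrl-sKD replicate (-1.30). S was at 304 and 272 in no-KD, near the level of the cross, while pogo was at 626 and 598, near the level of piwi-sKD. Mariner2, by contrast, was at 829.6 and 943 against 933 and 839, and these values overlapped. Hobo, a hAT element that causes hybrid dysgenesis and is missing from some strains, was at 419 and 412 against 746 and 632. It was 1.66-fold higher (log2 fold change 0.72 ± 0.14, limma adjusted p = 1.66e-06, and 0.00186 in limma without the variance trend).

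**Figure D4:**
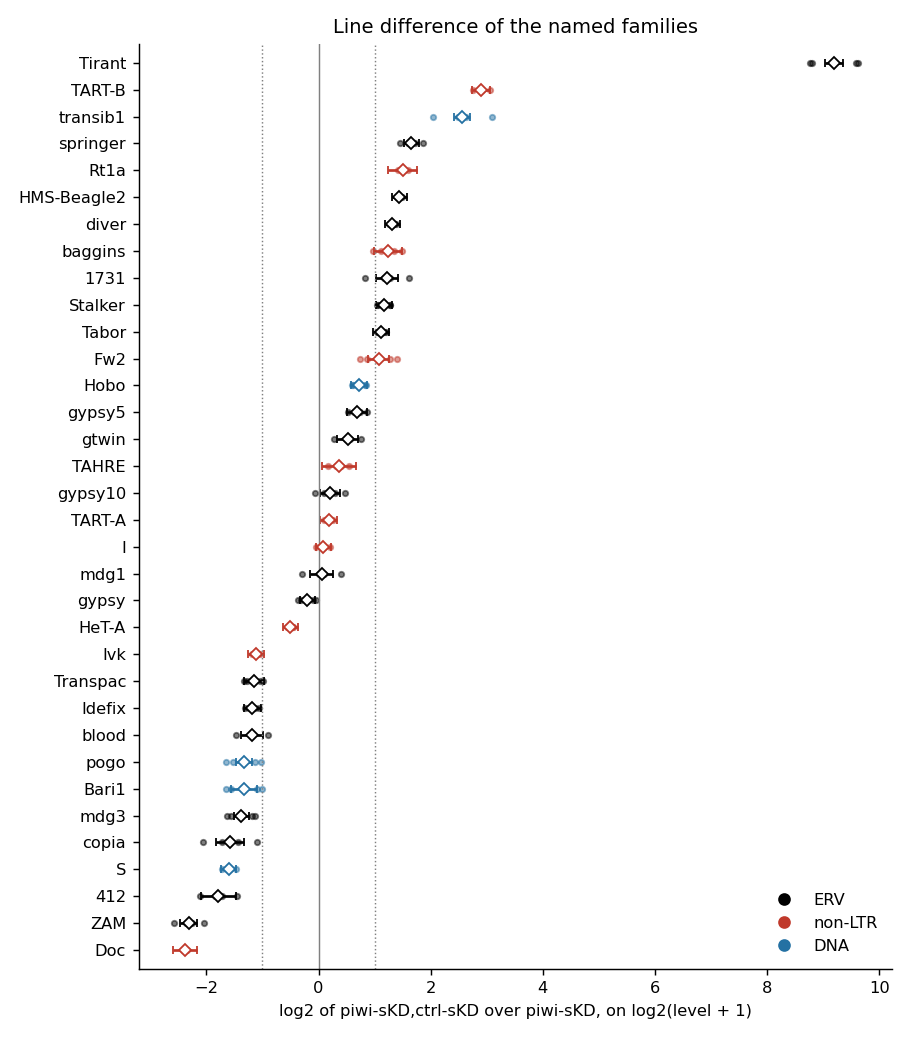
Line difference of the 34 named families (y axis) as the log2 fold change of piwi-sKD,ctrl-sKD over piwi-sKD (x axis, on log2(level + 1)), with the limma estimate and its SE as open diamonds and the 4 pairs of single samples as points, coloured by class. Tirant is at 9.19, TART-B at 2.90 and transib1 at 2.56, and Doc and ZAM are lowest at -2.38 and -2.31.

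ERV lineages differed in the direction of their calls. In the gypsy lineage, 6 of 14 families were higher and 0 lower, against 31 and 29 of all 110, and its median log2 ratio was 0.49. At an unadjusted p under 0.05, 0 were lower as well. With the values as deposited the counts were 5 and 2, and with the TE sum outside Tirant made equal they were 13 and 0. Fewer were called without the first piwi-sKD,ctrl-sKD replicate. Besides springer, the families called higher on the common scale were gypsy3, gypsy6, gypsy2, gypsy5 and gtwin, with log2 ratios of 0.52 to 0.94. Gypsy itself, which gave its name to the superfamily and is a classic target of flamenco, was at 1041 and 1257 normalised counts against 1008 and 978. It did not pass the test (limma adjusted p = 0.177), and its estimate turned from -0.20 to 0.36 when the TE sum outside Tirant was made equal. No-KD was at 94.9 and 76.7, below both Piwi-depleted lines on the common scale. The level of gypsy in the cross without Piwi depletion was not measured.

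In the lineage of 412 and mdg1, 4 of 7 families were higher (Stalker, Tabor, Stalker4 and Stalker2) and 2 were lower (412 and blood). Over all families, 28.2% were higher and 26.4% lower. The counts of the lineage were 3 and 2 as deposited, and 5 and 2 with the TE sum outside Tirant made equal. On the common scale mdg1 was not called. Mdg1 was at 7837 and 9665 normalised counts against 10300.5 and 7915, which overlapped, and its sign changed with the scaling (-0.20 as deposited). In the lineage of ZAM, gypsy5 and HMS-Beagle2 were higher, ZAM was lower, and rover and HMS-Beagle were not called. Gypsy5 is listed both here and in the gypsy lineage, and is counted in each. Of the 17.6 lineage, Tirant was higher, 17.6, opus and Idefix were lower, and 297 was not called. The call of 17.6 was near the threshold (limma adjusted p = 0.0398). In this lineage 2 families were lower in limma without the variance trend and with the replicate number as a block. With the TE sum outside Tirant made equal, 2 were higher and 1 lower. Of the 6 invader families 4 were higher and 1 lower, beside 28.2% and 26.4% of all families, and 2 and 2 as deposited and 2 and 1 with the replicate number as a block. Accord2 and Quasimodo of the accord lineage were lower, but with the TE sum outside Tirant made equal 1 accord family was higher and 0 were lower. Without the first piwi-sKD,ctrl-sKD replicate 0 of the invader and accord families were called, and the counts in the lineage of 412 and mdg1 were 3 higher and 0 lower. In the BEL/Pao superfamily, diver and rooA were higher, diver2 and Max were lower, and roo overlapped, at 6599 and 7099.6 against 6948 and 6524. The BEL/Pao counts were 2 higher and 3 lower as deposited, and 3 and 0 with the TE sum outside Tirant made equal.

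**Figure D5:**
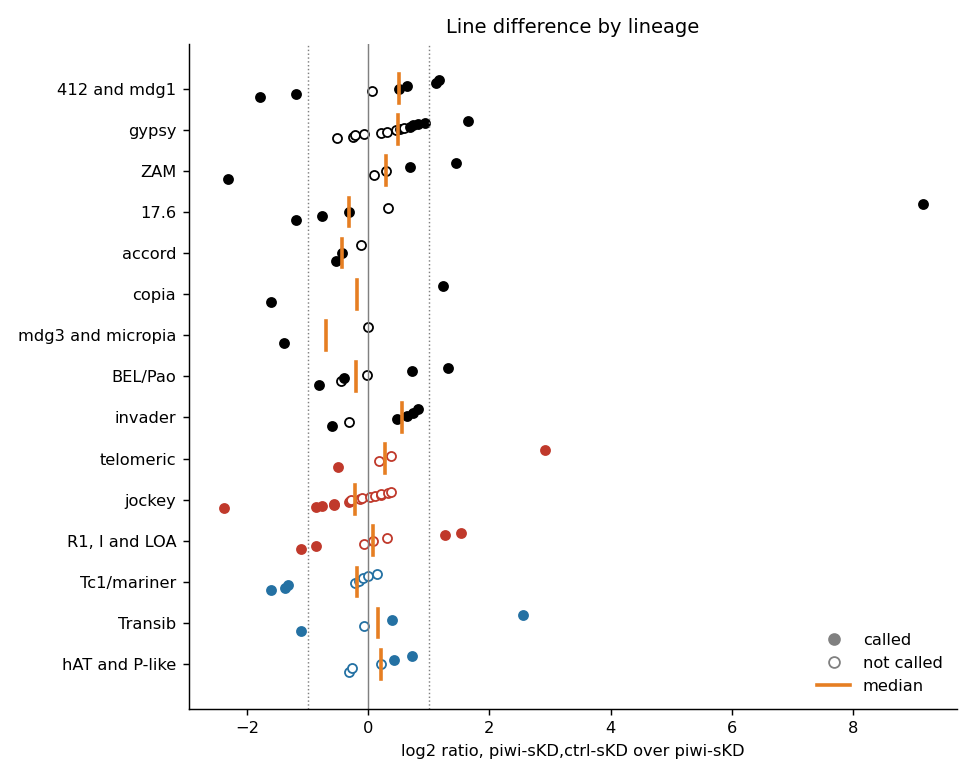
Log2 ratio of piwi-sKD,ctrl-sKD over piwi-sKD (x axis) for each of the 105 families that belongs to a lineage, by lineage (y axis), with filled points for families called by limma and orange bars for the median over the families plotted. Dotted lines mark 2-fold, and families called in both directions stand in 9 of the 15 lineages.

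Other families were called by limma at less than 2-fold. Gypsy6 was at 1207 and 1602 normalised counts in piwi-sKD and at 2589.9 and 2389 in piwi-sKD,ctrl-sKD, and at 166 and 131 in no-KD. Invader3 was at 3859 and 4472 against 6386 and 5232, and rooA at 1259 and 1278 against 2213 and 1962. Among the lower ones, jockey, the non-LTR element that gives its clade its name, was at 1496 and 1554 against 850.0 and 829, and the ERV Max at 1439 and 1373 against 782 and 821. In both of these the no-KD samples, at 1182 and 1098 for jockey and at 998 and 956 for Max, lay between the lines. Another 46 of the 105 families were not called, with log2 ratios from -0.51 to 0.59.

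Of the 8 families that the study singled out for loss of piRNAs or for other small RNAs on Piwi depletion, 4 were higher, 2 lower and 2 not called, beside 28.2% higher and 26.4% lower over all families. Without the first piwi-sKD,ctrl-sKD replicate 2 were higher and 1 lower. That list was chosen on small RNAs of the same flies and is not independent of these data. Higher were Tirant, Tabor, gypsy5 and gtwin. Gypsy5 was at 3871 and 4512 normalised counts against 6490.0 and 7011 (log2 fold change 0.69 ± 0.18, limma adjusted p = 0.000287, and 0.00257 in limma without the variance trend). Its call was lost without either piwi-sKD,ctrl-sKD replicate. Gtwin was at 5449.6 and 6305 against 9269.6 and 7621 (0.52 ± 0.19, limma adjusted p = 0.015), and its call was lost without either of these replicates, without the first piwi-sKD replicate, on the values as deposited, and with the replicate number as a block. Lower were ZAM and 412. Gypsy10 was at 152 and 135 against 145 and 187, which overlapped (-0.051 as deposited), and was not called.

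Of the 7 families known to vary between strains, 2 were higher (Tirant and Hobo), 3 were lower (ZAM, copia and Idefix) and 2 were not called (gypsy and the I element), beside the same 28.2% and 26.4%. The median of their absolute log2 ratios was 1.19, beside 0.51 over all families. The list was small, was chosen with earlier results of these data known, and held the ERV with the largest difference in each direction.

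The annotated reference genome (BDGP6.54) holds insertions of 109 of the 111 families, and gives the copies of a different strain from the flies studied. It carries 25 insertions of Tirant, 19 of them at least 4000 bp long, and the longest measured 8527 bp. Doc has 81 insertions, 49 of at least 4000 bp, and its longest lies on chromosome 2L from 19345072 to 19357215, within an intron of dnt. For 412 the counts are 44 and 32, and its longest is on chromosome 3L from 1047496 to 1055161, in an intron of bab1. The longest springer insertion is on chromosome X from 21723964 to 21731592, within an intron of the non-coding RNA of the flamenco locus. TART-B has 3 insertions, and the longest, on chromosome X from 9678154 to 9678639, overlaps an exon of nej and is 486 bp long. ZAM has 5 insertions and transib1 has 3.

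The 13 families past 2-fold higher had a median of 13 annotated insertions (3 to 36), the 13 lower families a median of 23 (5 to 81), and all 105 families a median of 21. The copies carried by the flies of the 2 lines were not analysed here, and their part in the line differences was not tested.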

How the data were processed

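RNA of TE families was measured by 50-nt single-read sequencing of polyA-enriched ovary RNA. The authors trimmed reads with UrQt and counted TE reads with TEcount of TEtools against known genomic copies, and genes after TopHat2 with eXpress. How reads matching several families were assigned is not stated. The deposited signal is the read count per family divided by size factors from DESeq2 (version 1.10 in the submitters' notes), in 2 tables of 111 families and 4 samples with separate factors. All 8 columns of values were used, with 0 left out.

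All values of a sample (100%) were multiples of 1 step within 1e-06 of a read, taken as 1 read, which gave the TE reads and floors of 3 reads. Those intervals and floors cover counting error only. Shares of TE reads have 95% Wilson intervals. Samples were grouped by their titles.

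The table of the crosses was multiplied by 1.19 (log2 offset -0.25), set over 105 families. Fold changes past 2-fold are ratios of group means, over the same families. The 4 samples were fitted with limma 3.58.1 in R 4.3.3 (mean-variance trend) on log2(value + 1), which understates changes of low families. P-values were adjusted by Benjamini-Hochberg over 110 families, with a threshold of 0.05. Log2 fold changes and SE come from this fit and log2 ratios from group means. Prior degrees of freedom were infinite, so that families of similar level share 1 spread. The fit was also run on simulated data that gave all families the same dispersion. That run cannot show how the fit treats families of similar level that differ in spread.

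Named were the 12 families with the largest ratio in each direction, past 2-fold, not overlapping between lines and called by limma (13 qualified in each direction), and all members of 3 lists. Other families are given as counts and ranges or chosen after their values were seen. Members and lists were chosen with earlier results of these data known. Alternatives were other scalings, filters, pseudocounts, variance models, a fit of all 8 samples, a replicate block and each replicate left out.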

Additional observations from a re-analysis of the deposited data

How the results depend on the processing

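With the values as deposited, limma called 22 families higher and 44 lower, 8 and 20 were past 2-fold, the ratio of the sums was 0.866, and the median log2 ratios were -0.10 (ERV), -0.23 (non-LTR) and -0.37 (DNA). With the TE sum outside Tirant made equal, chosen after the data were seen, these were 69 and 14, 30 and 5, and 0.72, 0.58 and 0.44. The ratio of the sums was 0.676 without Tirant. Leaving out single replicates gave 15 to 26 families higher and 12 to 26 lower in limma, 13 to 14 and 12 to 13 past 2-fold, ratios of the sums of 0.964 to 1.095, and medians of 0.14 to 0.24, -0.015 to 0.079 and -0.14 to -0.097; the lowest limma counts were without the first piwi-sKD,ctrl-sKD replicate. For the 34 named families, 579 of 611 values kept direction and side of the threshold, 16 became weaker, 7 stronger and 9 reversed. Reversed were gypsy10 (-0.051), mdg1 (-0.20), I (-0.17) and TART-A (-0.076) as deposited, gypsy (0.36) and HeT-A (0.061) with the TE sum outside Tirant equal, and, with single replicates left out, mdg1 (-0.093 to 0.212) and gypsy10 (-0.011 to 0.465). The deviations of same-numbered samples had a correlation of -0.156 over 105 families, and they share only a number. With the replicate block limma called 26 higher and 28 lower, 53 of these 54 among the 60 without it (of the named families gtwin lost its call), and with the crossed pairing, chosen after this check, 37 and 33. The cause of these shifts was not tested. Count tests (edgeR, DESeq2, TMM) were not run, because the tables hold too few low values for the check that 1 step is 1 read. Depth limits the 6 families that reached a mean of 10 in neither line.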
